A study of Mus musculus with 40 samples.

Results

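The 10 genes Itgax, Cst7, Gpnmb, Clec7a, Cd68, Spp1, Lpl, Axl, Lgals3 and Cd9 mark the phagocytic state that microglia take on in neurodegeneration, named disease-associated microglia. They were found by symbol among 54331 gene rows measured in mouse cerebellum, and all 10 were among the 21367 rows that reached a normalised count of 10 in at least 4 libraries. The genes were chosen with earlier results of these data known, which showed several of them higher in mice of the CSB genotype. Their differences between CSB genotypes are therefore a description. The calls and p-values printed for them are not evidence, since the genes were chosen with such differences known.

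RNA came from the cerebellum of male C57BL6 mice, as total RNA freed of ribosomal RNA. The genotypes are labelled WT, INDY after the citrate transporter encoded by Slc13a5, CSB after the repair protein encoded by Ercc6, and DKO. In DKO, Slc13a5 read as in INDY and Ercc6 mostly as in CSB. Mice of each genotype were fed standard chow (SD) or a ketogenic diet (KD), which is rich in fat and poor in carbohydrate. On SD there were 6 libraries each of CSB and INDY and 4 each of WT and DKO, and on KD there were 6 of INDY, 5 each of CSB and DKO and 4 of WT. Alleles, ages, the length of feeding and whether each library came from its own animal are not given in the sources used here, so p-values measure the spread between these libraries. The dissected tissue held every cell type of the cerebellum, and in such bulk RNA fewer cells of a type and less RNA per cell cannot be told apart.

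Microglia are the resident macrophages of the brain. In the resting state they express sensing receptors such as P2ry12, Tmem119 and Cx3cr1, and around dying cells, myelin debris or protein deposits they turn up genes of phagocytosis, lysosomal breakdown and lipid handling. The receptor Trem2 and its adaptor Tyrobp are needed for the full change of state. CSB is mutated in Cockayne syndrome, a childhood disorder in which the cerebellum shrinks and myelin is lost.

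Values are normalised estimated read counts, called normalised counts below, and summed to between 23736702 and 32247186 per library. These sums follow normalisation, so sequencing depth is unknown. Slc13a5 read 82.1 to 161 in WT and CSB and at most 0.934 in INDY and DKO. Ercc6 remained present in all libraries and ran from 382.5 to 876.2 in CSB and DKO. The library labelled WT KD 25 went against its label. Gm6768, a processed pseudogene that is listed at 0 in the other 19 WT and INDY libraries and at 929 to 1245 in CSB and DKO, read 1041 in it, and its Ercc6 value of 633 lay below the 718 of the next lowest WT or INDY library. It is called the library labelled WT KD 25 throughout, and results of the 10 genes that rest on it are given with and without it. Counts and medians of the gene lists are given with it only.

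The mean log2 level of 15 cerebellar neuron genes was 10.1 or more in 39 libraries and 7.43 in DKO SD 1. Genes of other tissues varied between libraries. A list of 16 forebrain neuron genes stood above a mean log2 level of 7 in 12 libraries, up to 10.5 in DKO SD 1, and a list of 20 liver genes stood above 4.5 in 19 libraries. Both limits were chosen after the levels were seen. In WT KD the summed level of 12 blood myeloid genes was 13446 in WT KD 12 and 3852 in WT KD 7, against 733 to 1634 in the 38 other libraries.

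Itgax, Clec7a, Axl and Cd9 are surface proteins. Itgax (ENSMUSG00000030789.9; GRCm38 chromosome 7, 128129547 to 128150657, plus strand) encodes CD11c, an integrin subunit of phagocytes that binds complement-coated particles. Its normalised counts in WT SD were 21.1, 40.8, 28.4 and 16.8. In CSB SD they ran from 96.8 to 225 with a median of 141.0. The lowest CSB SD library stood above the highest WT SD library. On KD the WT libraries read 20.8, 30.6, 16.0 and, in the library labelled WT KD 25, 109.5. CSB KD read 183, 82.8, 96.5, 98.3 and 49.8, so the library labelled WT KD 25 lay inside the CSB KD range and the 3 other WT KD libraries lay below it. INDY read low on both diets, with 13.8 to 29.3 on SD (median 24.9) and 10.9 to 36.1 on KD (median 17.2). DKO was high on both, with 60.5, 141, 116 and 105 on SD and 74.9, 94.5, 176, 186 and 77.2 on KD.

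Clec7a (ENSMUSG00000079293.11; chromosome 6, 129461591 to 129472779, minus strand) encodes dectin-1, a receptor for fungal beta-glucans, and carries the biotype polymorphic pseudogene in the annotation used. It read 56.5, 69.6, 47.4 and 73.7 in WT SD and 163 to 260.1 in CSB SD (median 232). In WT KD it read 64.8, 101, 36.2 and, in the library labelled WT KD 25, 169. CSB KD read 353, 138, 119.6, 184 and 132, and the 3 other WT KD libraries again lay below all of these. INDY ran from 36.7 to 90.1 on SD and from 19.7 to 110.2 on KD. DKO read 153, 207, 213 and 256 on SD and 171, 253, 242, 283 and 150.3 on KD. No INDY value reached the lowest DKO value on either diet.

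Axl (ENSMUSG00000002602.16; chromosome 7, 25757273 to 25788705, minus strand) encodes a receptor tyrosine kinase that recognises dying cells, and Cd9 (ENSMUSG00000030342.8; chromosome 6, 125460266 to 125494791, minus strand) a tetraspanin of the cell surface. Both are made by many cell types besides microglia. Axl ran from 874 in INDY KD to 1465 in CSB SD, a 1.68-fold range over the 40 libraries, and Cd9 from 599 in INDY KD to 1192 in CSB SD, a 1.99-fold range. The corresponding range was 20.6-fold for Itgax and 17.9-fold for Clec7a. Axl overlapped between CSB and WT and between DKO and INDY on both diets, with 1075 to 1465 in CSB SD and 1024 to 1265 in WT SD. Cd9 read 702 to 764 in WT SD and 751 to 1192 in CSB SD, and there the lowest library, CSB SD 30, was the only one of 6 inside the WT range.

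Cst7, Gpnmb and Cd68 belong to the lysosome. Cst7 (ENSMUSG00000068129.5; chromosome 2, 150570415 to 150578944, plus strand) encodes cystatin F, an inhibitor of lysosomal cathepsins. It was the most variable of the 10, from 2.04 in INDY KD to 147 in CSB SD, a 72.2-fold range. WT SD read 12.6, 7.64, 6.94 and 13.1, and CSB SD ran from 32.9 to 147 with a median of 60.8. WT KD read 8.08, 18.5 and 11.5 apart from the library labelled WT KD 25, which read 52.8. CSB KD read 75.9, 36.2, 34.4, 51.9 and 32.3. Leaving out the library labelled WT KD 25, the lowest of the CSB KD values exceeded the highest WT KD value. INDY ran from 7.85 to 18.2 on SD and from 2.04 to 15.0 on KD, while DKO read 32.0, 88.5, 56.4 and 72.6 on SD and 37.1, 49.6, 75.2, 79.7 and 46.5 on KD.

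Gpnmb (ENSMUSG00000029816.10; chromosome 6, 49036546 to 49070929, plus strand) encodes a glycoprotein of lysosomes and melanosomes. It read 73.5, 108, 99.9 and 129.6 in WT SD and 238 to 696 in CSB SD (median 439). CSB KD stood lower, at 383, 196, 184, 229 and 144, and WT KD read 64.3, 80.9, 61.6 and, in the library labelled WT KD 25, 261. INDY ran from 78.7 to 143 on SD and from 55.9 to 125 on KD. DKO read 123, 482, 384 and 578 on SD, where the lowest value belonged to DKO SD 1, the library with the highest forebrain level, and it lay inside the INDY range. On KD DKO read 226, 328, 429, 483 and 263, all above INDY KD.

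Cd68 (ENSMUSG00000018774.13; chromosome 11, 69664213 to 69666153, minus strand) encodes a lysosomal membrane glycoprotein of macrophages. It read 77.4, 77.5, 85.0 and 80.7 in WT SD, and 240.0, 246, 246 and 254 in DKO SD, with little spread within either group. CSB SD ran from 132 to 266 with a median of 222, and CSB KD read 318, 154, 189.9, 171 and 161. WT KD read 110.2, 119 and 94.5, and 216 in the library labelled WT KD 25. INDY ran from 66.7 to 111 on SD and from 67.7 to 125 on KD, and DKO KD read 152, 213, 195, 248 and 168. Every CSB or DKO value was above every WT or INDY value except that of the library labelled WT KD 25.

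Spp1, Lpl and Lgals3 act outside the cell. Spp1 (ENSMUSG00000029304.14; chromosome 5, 104435118 to 104441050, plus strand) encodes osteopontin, a phosphoprotein of bone and of activated macrophages. It had the highest level per kilobase of exon of the 10, with a mean normalised count of 1310 per kilobase over the 40 libraries, and Itgax the lowest at 15.4 per kilobase. Its groups overlapped throughout: WT SD read 2388, 2061, 779 and 2180.1, CSB SD ran from 1269.5 to 3474 with a median of 2687, and INDY SD alone ran from 596 to 3991. Within groups its log2 values had an SD of 0.71, the largest of the 10.

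Lpl (ENSMUSG00000015568.16; chromosome 8, 68880491 to 68907448, plus strand) encodes lipoprotein lipase, which frees fatty acids from lipoproteins. It went the other way from the rest, with the highest group mean in WT SD at 693 ± 145 (SD, n = 4) and lower means in CSB KD at 448 ± 84.1 (n = 5) and DKO KD at 489 ± 161 (n = 5). All of its groups overlapped.

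Lgals3 (ENSMUSG00000050335.17; chromosome 14, 47367751 to 47386160, plus strand) encodes galectin-3, a lectin that is released by phagocytes and also binds damaged lysosomes. It read 44.7, 41.2, 71.1 and 46.6 in WT SD and 76.2 to 259 in CSB SD (median 118). In WT KD the highest value, 133, belonged to WT KD 12, the library with the highest blood myeloid level, and the library labelled WT KD 25 read 61.7. CSB KD read 159, 80.1, 72.1, 83.4 and 75.04. INDY ran from 24.8 to 92.2 on SD and from 25.1 to 103 on KD. DKO ran from 66.9 to 155 on SD and from 79.0 to 214 on KD, and overlapped INDY on both diets. Lgals3 lies 14.8 Mb from Ercc6 on the same chromosome, so that sequence linked to Ercc6 cannot be told apart from the CSB genotype for this gene.

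**Figure D1:**
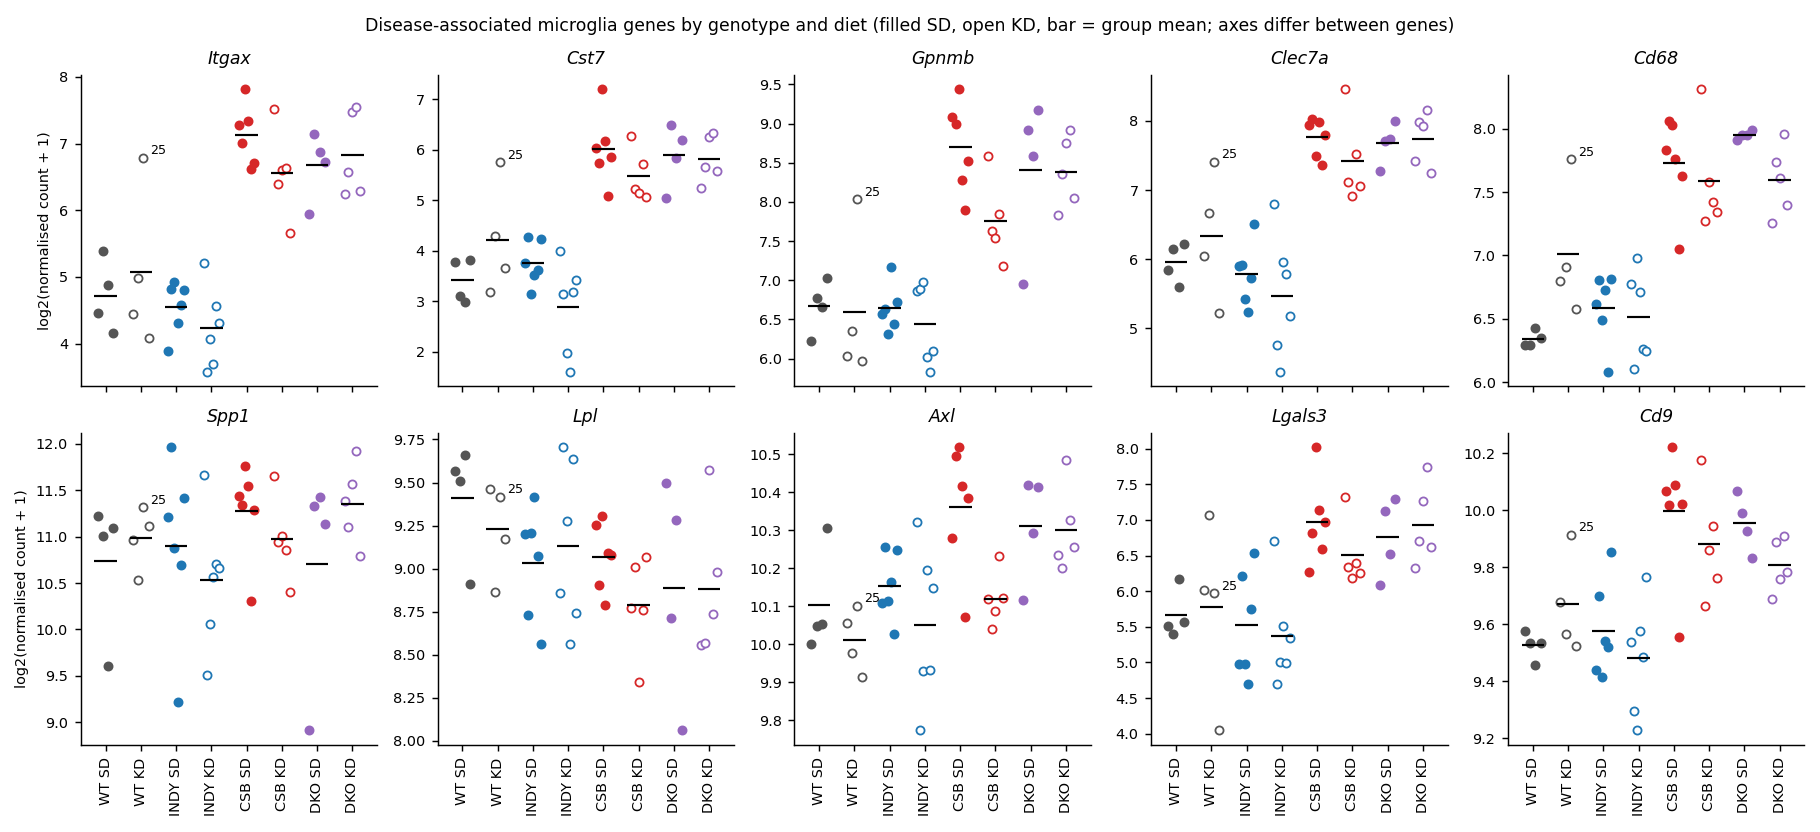
Log2(normalised count + 1) of each gene (vertical axes, which differ between genes) by genotype and diet (horizontal axis), with 1 point per library, filled on SD and open on KD, and a bar at the group mean. Itgax, Cst7, Clec7a and Cd68 show no overlap between CSB or DKO and WT or INDY apart from the point marked 25, the library labelled WT KD 25, while Spp1 and Lpl overlap in every group.

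With all libraries as labelled, 0 of the 10 genes and 0 of all 21367 genes (0%) were free of overlap between CSB or DKO and WT or INDY. Across the 20 CSB and DKO libraries and the 19 WT and INDY libraries that remain without the library labelled WT KD 25, 4 of the 10 genes did not overlap at all. Itgax ran from 49.8 to 225 in CSB and DKO and from 10.9 to 40.8 in WT and INDY. Cst7 ran from 32.0 to 147 against 2.04 to 18.5, Clec7a from 119.6 to 353 against 19.7 to 110.2, and Cd68 from 132 to 318 against 66.7 to 125. Of all 21367 genes, 5 were higher without overlap in this split (0.0234%), namely these 4 and Gm6768, and 1 was lower (0.00468%), Ncoa4, the cargo receptor for ferritin. Gm6768 is a copy of Ncoa4, and whether their opposite differences are separate results was not tested. Both were named after their values were seen. These counts describe the choice of the genes and support nothing further. For Gpnmb 19 of its 20 CSB and DKO values exceeded every value of those 19 WT and INDY libraries. For Cd9 this held for 13 of 20 libraries, for Axl for 8, for Lgals3 for 7, and for Spp1 and Lpl for 0.

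The 250 bases upstream of the RefSeq transcript start (GRCm38.p6) are printed for the 4 genes that separated the genotypes, 5′ to 3′ on the strand of the gene, to show what these promoters hold. Capitals mark matches to TGANTCA, the site of AP-1 factors such as Fos and Jun. Itgax lies at chr7:128129300-128129549 on the plus strand, Cd68 at chr11:69666171-69666420 on the minus strand, Cst7 at chr2:150570165-150570414 on the plus strand and Clec7a at chr6:129472780-129473029 on the minus strand.
Itgax: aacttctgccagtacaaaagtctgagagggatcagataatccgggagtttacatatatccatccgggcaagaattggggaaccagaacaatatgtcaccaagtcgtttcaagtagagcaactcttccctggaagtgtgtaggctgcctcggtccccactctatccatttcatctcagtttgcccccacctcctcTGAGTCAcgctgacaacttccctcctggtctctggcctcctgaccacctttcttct
Cd68: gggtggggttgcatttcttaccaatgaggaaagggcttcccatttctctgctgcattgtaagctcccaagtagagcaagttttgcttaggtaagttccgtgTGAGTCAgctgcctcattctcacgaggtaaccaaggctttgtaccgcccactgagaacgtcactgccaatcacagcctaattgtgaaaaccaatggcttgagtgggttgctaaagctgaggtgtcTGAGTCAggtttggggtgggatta
Cst7: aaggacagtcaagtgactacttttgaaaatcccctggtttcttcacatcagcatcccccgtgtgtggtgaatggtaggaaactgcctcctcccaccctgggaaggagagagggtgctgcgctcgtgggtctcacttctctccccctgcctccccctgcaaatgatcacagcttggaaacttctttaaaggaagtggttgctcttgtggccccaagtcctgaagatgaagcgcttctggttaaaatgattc
Clec7a: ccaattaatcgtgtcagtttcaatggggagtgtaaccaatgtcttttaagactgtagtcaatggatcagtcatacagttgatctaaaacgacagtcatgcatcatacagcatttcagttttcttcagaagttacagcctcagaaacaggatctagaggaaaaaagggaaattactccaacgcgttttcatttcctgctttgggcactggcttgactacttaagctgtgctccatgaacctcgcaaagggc
Itgax held 1 match, TGAGTCA, from 56 to 50 bases before the start, and Cd68 held 2, from 149 to 143 and from 24 to 18 bases before it. Promoters of 9 of the 10 genes were in the table used, and Itgax and Cd68 were the 2 of 9 with such a match, against 6.75% of 32851 promoters of the same length. GAGGAAG, the core bound by the microglial factor PU.1, was found on either strand in 2 of 9, Spp1 and Axl, against 10.6% of promoters. CACGTG and TCATGTG, sites of the lysosomal regulators TFEB and MITF, were found in 0 of 9, against 6.02% and 3.25%. A gene was counted where any of its promoters matched, and Clec7a and Spp1 had 2 each, while the percentages are over single promoters. All motifs were searched on both strands, and a match is a run of letters, not a measured binding site.

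Libraries tended to be high or low in many of the genes at once. CSB SD 16, CSB KD 13 and DKO KD 24 each held the highest value of their group in 8 of the 10 genes, as did the library labelled WT KD 25. CSB SD 30 and DKO SD 1 held the lowest in 8, and WT KD 28 and DKO KD 2 in 7. The correlation of each gene with the mean of the other 9, over 40 libraries normalised together, was highest for Itgax (Pearson r = 0.94) and Cst7 (0.93), and was 0.92 for Clec7a, 0.88 for Gpnmb, 0.87 for Cd68, 0.84 for Cd9, 0.82 for Lgals3 and 0.72 for Axl. Spp1 stood apart at 0.48 and Lpl at -0.39. After group means were removed the values were 0.80 for Itgax, 0.78 for Cst7, 0.54 for Spp1 and -0.34 for Lpl, and 0.59 to 0.71 for the other 6.

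**Figure D2:**
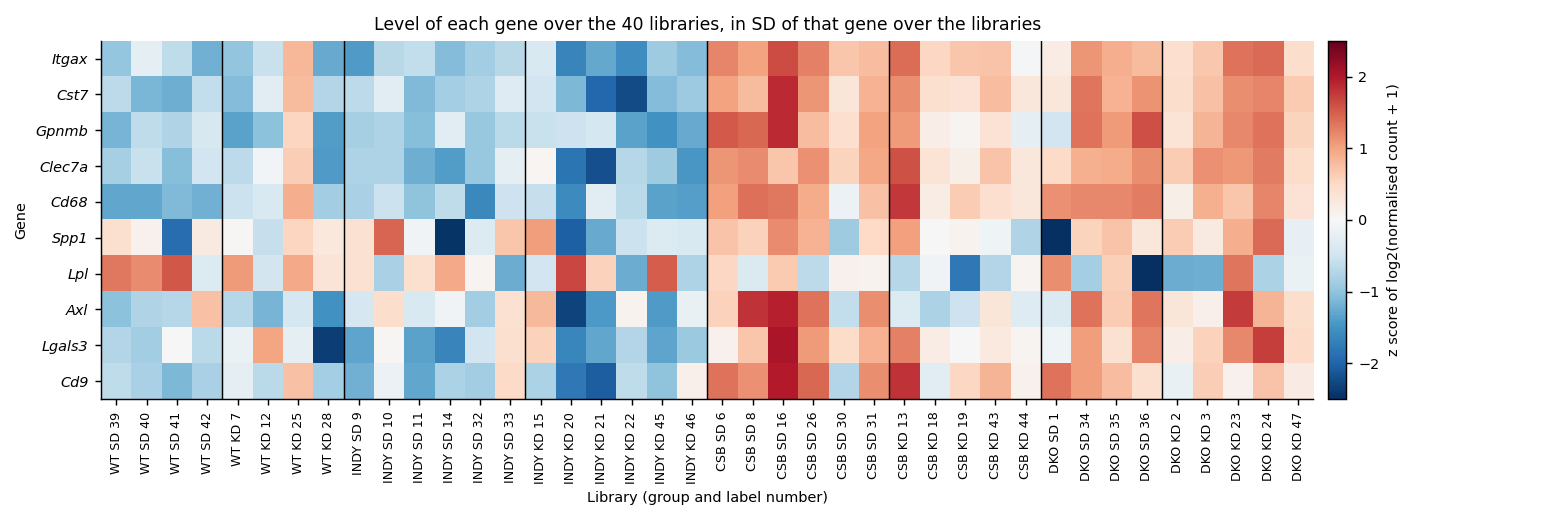
Level of each of the 10 genes (rows) in each of the 40 libraries (columns, grouped by genotype and diet), as the distance of log2(normalised count + 1) from that gene's mean in SD over the libraries. The library labelled WT KD 25 is above the mean in 8 of 10 genes, with 0.83 SD for Itgax and 0.92 SD for Cd68, and the row of Lpl runs against the others.

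Differences between CSB genotypes were measured as log2 differences of log2(normalised count + 1) from 1 fit of limma, a linear model with moderated variances, over all 21367 genes. A gene is called where its Benjamini-Hochberg adjusted p was under 0.05. Averaged over diets and over the INDY genotype, 8 of the 10 genes were called, all higher in CSB and DKO, where 0.566% of all genes were called higher and 0.796% in either direction. That share was not stable, as 120 to 1378 of all 21367 genes were called leaving out single libraries. The log2 difference was 2.23 for Cst7 (SE 0.21), 2.15 for Itgax (SE 0.20), 1.77 for Clec7a (SE 0.18), 1.72 for Gpnmb (SE 0.18), 1.2 for Lgals3 (SE 0.21) and 1.10 for Cd68 (SE 0.11). It was far smaller for Cd9 at 0.35 (SE 0.05) and Axl at 0.19 (SE 0.04). The 2 genes that were not called were Spp1 at 0.29 (SE 0.22) and Lpl at -0.29 (SE 0.12). Since this contrast chose the genes, the counts are printed beside their background and nothing is read from them.

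Without the library labelled WT KD 25, 8 genes were called (0.852% of all genes), and the largest shifts were in Itgax to 2.29 and Cst7 to 2.36. Without the 19 libraries above the liver limit, 4 were called (Itgax 2.11, Cst7 2.04, Clec7a 1.78 and Cd68 1.14), and Gpnmb at 1.66, Lgals3 at 1.18, Cd9 at 0.34 and Axl at 0.23 were not. Without the 12 libraries above the forebrain limit the differences were larger for Itgax at 2.41, Gpnmb at 2.13 and Lgals3 at 1.71. That fit kept WT KD 28 as the only WT KD library, which held the lowest value of its group in 7 genes. It also left out DKO SD 1 and the library labelled WT KD 25. Why these differences were larger was not tested.

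By pair of groups, CSB SD against WT SD gave log2 differences of 2.59 for Cst7 (SE 0.43), 2.41 for Itgax (SE 0.40), 2.04 for Gpnmb (SE 0.37), 1.81 for Clec7a (SE 0.36) and 1.39 for Cd68 (SE 0.21). These 5 genes were called, where 0.136% of all genes were (0.122% higher, 0.014% lower), and an unadjusted p under 0.05 was found for 7.88%. As in the average, the genes were chosen with such differences known, so the counts of each pair are a description only. These 5 and Lgals3 did not overlap between the groups, where 1.59% of all genes were higher without overlap. In the same libraries 19 of 20 liver genes were higher in CSB SD with a median log2 difference of 3.07 and 0 called. The mean log2 level of the list was 3.42 ± 0.37 (SD, n = 4) for WT SD and 6.12 ± 2.36 (n = 6) for CSB SD. The summed level, 27870 to 48612 and 26024 to 61816, was mostly Trf and Ttr, which brain and choroid plexus also make, and 11 of the 20, among them Mup20, Fgb and Ahsg, were listed at 0 in some libraries. CSB SD 8 is the only CSB SD library under the liver limit. With that library alone 0 of the 10 were called, while the differences were 2.29 for Itgax (SE 0.82), 2.31 for Cst7 (SE 0.76), 2.33 for Gpnmb (SE 0.72), 2.08 for Clec7a (SE 0.67) and 1.72 for Cd68 (SE 0.39). With the liver level as a covariate the count was 3, and the 5 differences lay between 1.34 and 2.53. The count was also 3 without WT SD 39, with Gpnmb at 1.89 and Clec7a at 1.78 no longer called.

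DKO SD against INDY SD gave 2.14 for Cst7 (SE 0.43), 2.12 for Itgax (SE 0.40), 1.90 for Clec7a (SE 0.36) and 1.36 for Cd68 (SE 0.21), and these 4 were called where 0.0608% of all genes were (0.014% lower) and 6.16% had an unadjusted p under 0.05. They were also the 4 without overlap, where 0.786% of all genes were higher without overlap. Gpnmb was at 1.76 (SE 0.37) and was called without the library labelled WT KD 25 (5 calls, 0.0796% of all genes). The count was 1 without INDY SD 32, DKO SD 34, DKO SD 35 or DKO SD 36, and 2 without INDY SD 11. Leaving out any single library, the differences stayed between 1.96 and 2.36 for Itgax, 1.94 and 2.42 for Cst7, 1.79 and 2.04 for Clec7a and 1.26 and 1.41 for Cd68. All 16 forebrain genes were higher in DKO SD with a median of 1.03 and 0 called, their summed level was 4172 to 7095 in INDY SD and 4299 to 39368 in DKO SD, and without the high forebrain libraries 2 genes were called, Cst7 and Gpnmb. The differences were then 2.53 for Cst7, 2.51 for Gpnmb, 2.16 for Itgax, 1.96 for Clec7a and 1.42 for Cd68. Without the high liver libraries 0 were called, with 2.06 for Itgax, 1.45 for Cst7, 1.30 for Clec7a, 1.22 for Cd68 and 1.12 for Gpnmb. That fit kept only DKO SD 1 and DKO SD 35 against INDY SD 9 and INDY SD 33. DKO SD 1 had the highest forebrain level and the lowest value of its group in 8 genes. Its part in the smaller differences was not tested.

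DKO KD against INDY KD gave 2.93 for Cst7 (SE 0.40), 2.59 for Itgax (SE 0.37), 2.27 for Clec7a (SE 0.34), 1.93 for Gpnmb (SE 0.35) and 1.08 for Cd68 (SE 0.20). These 5 were called where 0.0983% of all genes were (0.0842% higher, 0.014% lower), and an unadjusted p under 0.05 was found for 8.34%. The 5 did not overlap, where 0.417% were higher without overlap. The count was 3 without DKO KD 24, with Gpnmb at 1.80 and Cd68 at 0.99 no longer called. In a fit of these 2 groups alone it was 0, with the same differences and adjusted p from 0.057 to 0.194 by limma. CSB KD against WT KD gave 1.49 for Itgax (SE 0.41), 1.26 for Cst7 (SE 0.44), 1.16 for Gpnmb (SE 0.39), 1.08 for Clec7a (SE 0.37) and 0.58 for Cd68 (SE 0.22), with 0 called by limma where 0.00468% of all genes were. An unadjusted p under 0.05 was found for these 5 and for 8.23% of all genes. Without the library labelled WT KD 25 these differences were 2.06 for Itgax, which was then called (0.0468% of all genes), 1.77 for Cst7, 1.64 for Gpnmb, 1.44 for Clec7a and 0.83 for Cd68. All 5 were then free of overlap, where 2.51% of all genes were higher without overlap. With that library included, all 12 blood myeloid genes were lower in CSB KD than in WT KD with a median of -2.10. Their summed level was 764.5 to 1167 in CSB KD and 799 to 13446 in WT KD.

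**Figure D3:**
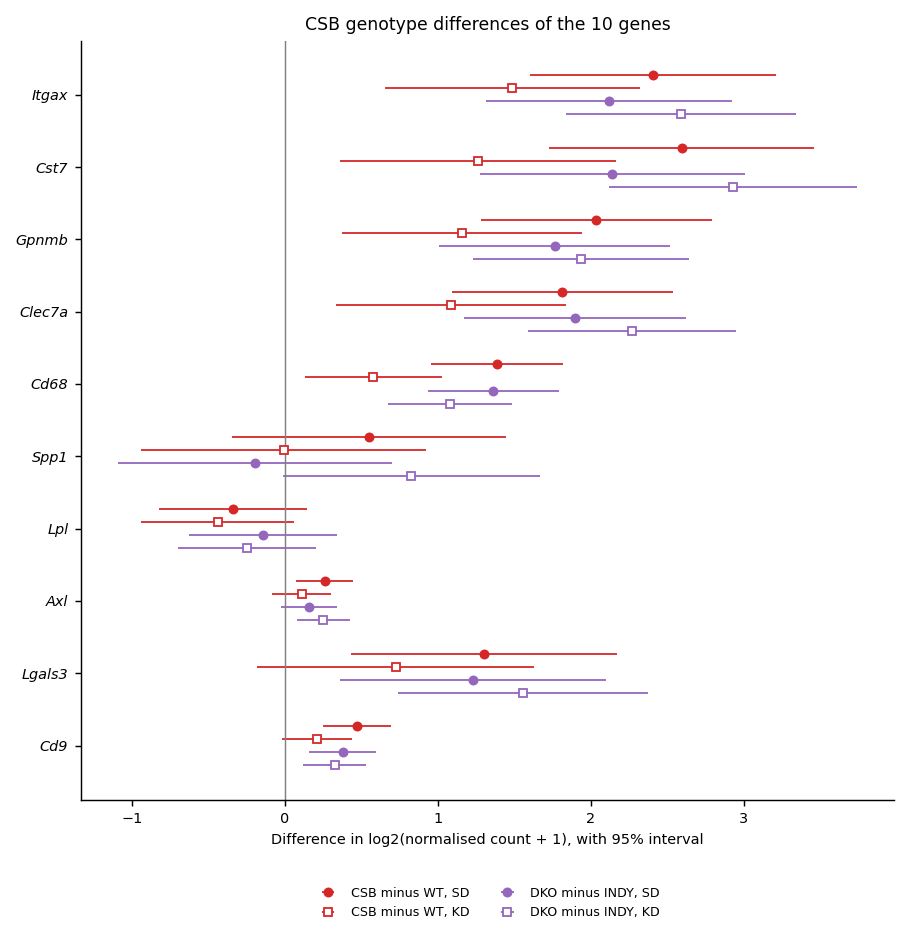
Difference in log2(normalised count + 1) between CSB genotypes (horizontal axis) for each gene (vertical axis), as CSB minus WT in red and DKO minus INDY in purple, with circles for SD, open squares for KD and bars for 95% intervals. Itgax, Cst7, Gpnmb and Clec7a lie between 1.08 and 2.93 in all 4 pairs, Axl lies between 0.11 and 0.26, and Lpl lies below 0 in all 4.

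Other genes of the same state were read from a list of 44, of which 43 were tested. In the average over CSB genotypes 39 of 43 were higher and 16 were called, all higher, with a median of 0.34 beside 0.0066 over all genes tested. Of all 21367 genes 11126 were higher, and 0.566% were called higher. This list too was chosen with earlier results of these data known, so its counts are a description only. The named genes with the smallest p were Tyrobp at 0.93 (SE 0.12), Trem2 at 0.89 (SE 0.11), the chemokine Ccl3 at 1.32 (SE 0.17), the lysosomal proteases Ctsd at 0.49 (SE 0.064) and Ctsz at 0.46 (SE 0.061), and the surface glycoprotein Cd52 at 1.04 (SE 0.14). The lipid carrier Apoe was at 0.34 (SE 0.059). The largest log2 differences of the list were those of Atp6v0d2, a proton pump subunit, at 2.18 (SE 0.35) and the chemokine Ccl4 at 1.72 (SE 0.26), both with mean normalised counts under 10 and named after their values were seen. The value of Atp6v0d2 was above those of Itgax, Clec7a and Gpnmb, and that of Ccl4 was close to that of Gpnmb. Atp6v0d2 was listed at 0 in 9 libraries and Ccl4 in 3, so both differences rest partly on values at or near 0.

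Of 20 homeostatic microglia genes tested in the same average, 16 were higher, with a median of 0.20. P2ry12, a receptor for ADP released by damaged cells, was at -0.13 (SE 0.10), Tmem119 at -0.07 (SE 0.097), the fractalkine receptor Cx3cr1 at 0.30 (SE 0.10) and the growth factor receptor Csf1r at 0.25 (SE 0.099), and none of these 4 passed. All 20 genes read above 0 in every library. In CSB SD against WT SD 17 of 20 were higher with a median of 0.37 and 0 called, and WT SD had the lowest mean level of the 8 groups for this list at 7.55 ± 0.17 (SD, n = 4), against 7.97 ± 0.29 (n = 6) for CSB SD and 7.97 ± 0.22 (n = 6) for INDY SD.

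The mean log2 level of Itgax, Cst7, Gpnmb, Clec7a and Cd68, the 5 genes called between CSB SD and WT SD, was set against that of the homeostatic list in each library. These 5 were picked by their difference in these same libraries. Their separation of the groups follows from that choice and supports nothing further. The 5 genes stood at 7.47 ± 0.40 (SD, n = 6) in CSB SD, 7.32 ± 0.48 (n = 4) in DKO SD, 7.27 ± 0.43 (n = 5) in DKO KD and 6.96 ± 0.53 (n = 5) in CSB KD. Next came WT KD at 5.85 ± 0.92 (n = 4), INDY SD at 5.46 ± 0.23 (n = 6), WT SD at 5.42 ± 0.12 (n = 4) and INDY KD at 5.11 ± 0.42 (n = 6). The ranges of the libraries of neighbouring groups in this order overlapped, and between CSB KD and WT KD they did so only through the library labelled WT KD 25, at 7.15, with the other WT KD libraries at 5.30, 5.84 and 5.10. The difference between the 5 genes and the homeostatic list ran from -3.37 to -1.87 in the 19 WT and INDY libraries without the library labelled WT KD 25, and from -1.86 to -0.15 in the 20 CSB and DKO libraries. The ranges met at WT KD 12 and DKO SD 1, the libraries with the highest blood myeloid and the highest forebrain level, and the library labelled WT KD 25 was at -1.07.

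**Figure D4:**
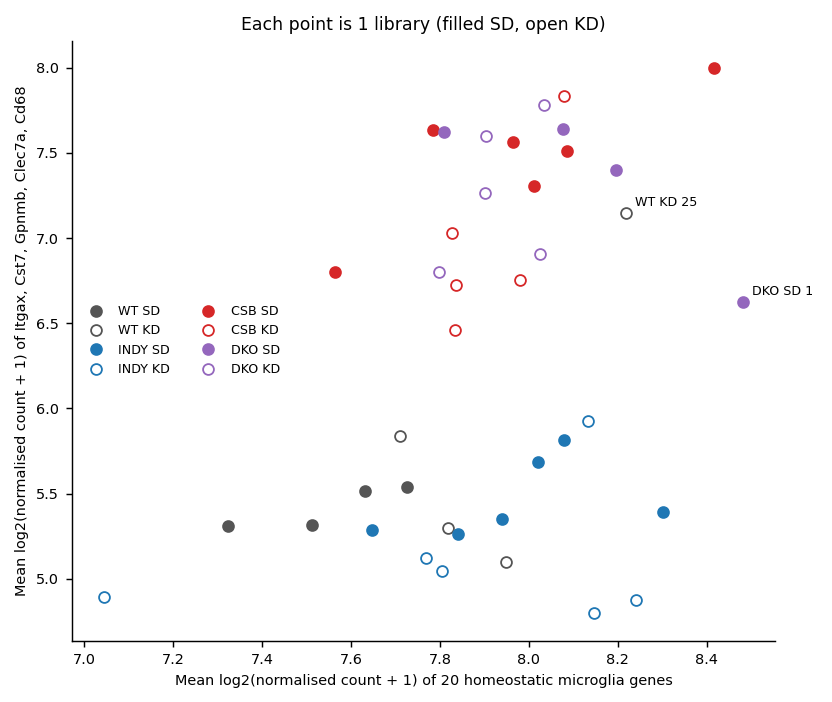
Mean log2(normalised count + 1) of Itgax, Cst7, Gpnmb, Clec7a and Cd68 (vertical axis) against that of 20 homeostatic microglia genes (horizontal axis), with 1 point per library. CSB and DKO lie between 6.46 and 8.00 on the vertical axis and WT and INDY between 4.80 and 5.93 apart from the library labelled WT KD 25, while on the horizontal axis the 2 sets overlap (7.56 to 8.48 and 7.04 to 8.30). The genes of the vertical axis were picked by their difference in these same libraries.

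Markers of other macrophages and blood cells were read from the same fit. In the average, 5 of 12 border macrophage genes, such as Mrc1 and Cd163, were higher with a median of -0.09 and 0 called, and 0 of 12 blood myeloid genes were higher with a median of -0.83 and 0 called. The summed level of the border macrophage list was 404 to 1526 in WT and INDY and 439 to 968 in CSB and DKO. The blood myeloid list was at 799 to 13446 in WT and INDY and 733 to 1375 in CSB and DKO, where Ngp, Camp, Cd177, Mmp8, Retnlg and Chil3 were listed at 0 in some libraries.

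Outside the 10 genes, the genes whose level over the 40 libraries was most like the mean of the 10 were chosen by Pearson r among genes with a mean of at least 20. Mpeg1, a pore-forming protein of phagocytes, had r = 0.93, Ctsz 0.93, Ctsd 0.91, the urokinase gene Plau 0.89, the bacterial lipoprotein receptor Tlr2 0.88, the lysosomal protease Ctss 0.88, Tyrobp 0.88 and the complement subunit C1qa 0.86. After group means were removed Mpeg1 stayed highest of these at 0.87, followed by Tlr2 at 0.83 and Ctsz at 0.81, and Plau, which lies on chromosome 14 like Ercc6, was lowest at 0.65. These are descriptions over libraries that share 1 normalisation.

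The ketogenic diet was compared with the standard diet to see whether it moved these genes, a comparison that did not choose them. Averaged over genotypes 0 of the 10 genes were called by limma, as were 0 of all 21367 genes (0%), with 676 genes (3.16%) at an unadjusted p under 0.05. The log2 differences of the 10 lay between -0.31 for Gpnmb (95% interval -0.69 to 0.06) and 0.06 for Spp1 (-0.39 to 0.50). Axl, at -0.11 (-0.20 to -0.02), was the one gene of the 10 with an unadjusted p under 0.05 (limma adjusted p = 1), and it was below 0 in all 4 genotypes. Itgax was at -0.09 (-0.49 to 0.31) and Cst7 at -0.17 (-0.60 to 0.26). Without the library labelled WT KD 25, Gpnmb was at -0.43 (-0.77 to -0.09, adjusted p = 1) and also had an unadjusted p under 0.05, with 0 called.

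Within WT all 10 genes missed the threshold, where 0% of all genes passed and 13.4% had an unadjusted p under 0.05. Cd68 was higher on KD without overlap, from 80.2 ± 3.59 (SD, n = 4) to 135 ± 54.8 (n = 4), a log2 difference of 0.67 (95% interval 0.20 to 1.14, limma adjusted p = 0.281). Without the library labelled WT KD 25 it was 0.42 (-0.05 to 0.88, adjusted p = 0.684), still without overlap, which 5.13% of all genes showed in this direction with that library and 5.85% without it. Among the other WT values Cst7 was at 0.80 and Itgax at 0.36, and without that library at 0.28 and -0.21. With that library included, 19 of 20 homeostatic genes were higher on KD with a median of 0.38 and 11 of 12 blood myeloid genes with a median of 1.86, with 0 called in either list.

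Within INDY 9 of the 10 were below 0 on KD and 0 were called, where 0% of all genes were and 4.63% had an unadjusted p under 0.05. Cst7 had the largest difference at -0.87 (95% interval -1.65 to -0.09, limma adjusted p = 0.981), from 13.0 ± 4.15 (SD, n = 6) to 7.58 ± 4.73 (n = 6), and the groups overlapped. Within CSB all 10 were below 0 on KD with a median of -0.33, and 0 were called, where 0% of all genes were and 3.43% had an unadjusted p under 0.05. Gpnmb was at -0.95 (-1.66 to -0.24, limma adjusted p = 0.984), from 444 ± 169.6 (SD, n = 6) to 228 ± 92.2 (n = 5). Axl was at -0.24 (-0.41 to -0.07, limma adjusted p = 0.984), Itgax at -0.56 (-1.32 to 0.19) and Cst7 at -0.54 (-1.35 to 0.28). The median over all genes tested was -0.0013 in this comparison, and 11 of 20 homeostatic genes were below 0 with a median of -0.04. Also below 0 were 20 of 20 liver genes (median -1.78), 12 of 12 choroid plexus genes (-1.42) and 11 of 12 blood myeloid genes (-0.61), with 0 called in each list, and their part was not tested. The liver limit was passed by 5 of 6 CSB SD libraries and by CSB KD 18 alone on KD. Within DKO 6 of the 10 were below 0 and 0 were called, where 0.00468% of all genes were and 8.11% had an unadjusted p under 0.05, as 0 of the 10 had. Spp1 had the largest difference at 0.65 (-0.28 to 1.58), with DKO SD 1 at 480.5 and the 3 other DKO SD libraries at 2242 to 2761. All 16 forebrain genes were lower on KD in DKO, with a median of -1.24 and 0 called, and their part was not tested.

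Whether the CSB genotype difference depended on the diet was tested as the difference on KD minus that on SD. It was below 0 in 9 of the 10 genes, 0 were called, and 0% of all genes were, with 9.08% at an unadjusted p under 0.05. Cd68 was at -0.55 (95% interval -0.97 to -0.12, limma adjusted p = 0.532), and at -0.42 (-0.82 to -0.02, limma adjusted p = 0.745) without the library labelled WT KD 25. Itgax was at -0.23 (-1.03 to 0.57) and Gpnmb at -0.35 (-1.10 to 0.40), and without that library they were at 0.06 and -0.11. Of 20 homeostatic genes 19 were below 0 in the same test, with a median of -0.24 and 0 called, as were 37 of 43 other genes of the state with a median of -0.17 and 0 called. All 16 forebrain genes (median -1.18) and 11 of 12 blood myeloid genes (median -1.80) were below 0 too, and 15 of 15 cerebellar neuron genes were above 0 (median 1.04, 12 with an unadjusted p under 0.05), with 0 called in each list. These list results include the library labelled WT KD 25, which had the highest homeostatic mean of WT KD at 8.22.

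The INDY genotype was compared with WT and DKO with CSB to see whether the INDY genotype moved the genes. On SD, INDY against WT gave differences from -0.38 for Lpl to 0.33 for Cst7, and DKO against CSB gave -0.58 for Spp1 to 0.22 for Cd68. In both 0 of the 10 genes were called, where 0.00468% of all genes were. An unadjusted p under 0.05 was found for 0 of the 10 in both, and for 14.3% and 13.6% of all genes. On KD, DKO against CSB gave -0.07 for Cd9 to 0.62 for Gpnmb (95% interval -0.11 to 1.36), with 0 called where 0.0281% of all genes were, and Axl at 0.18 (limma adjusted p = 1) was the one gene of the 10 with an unadjusted p under 0.05, where 1.73% of all genes had one.

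INDY KD against WT KD was compared with and without the library labelled WT KD 25. With it Cst7 was at -1.33 (95% interval -2.20 to -0.47, limma adjusted p = 0.424), Clec7a at -0.86, Itgax at -0.84 and Cd68 at -0.50, and these 4 had an unadjusted p under 0.05, as did 6.59% of all genes. Without it they were at -0.82, -0.50, -0.27 and -0.25, and 0 of the 10 had such a p. In both fits 0 of the 10 were called, where 0.00936% of all genes were with it and 0.0187% without it. Cst7 had the largest difference of the 10 in the fit without it (-1.69 to 0.04), with INDY KD values of 15.0, 7.79, 2.93, 2.04, 8.04 and 9.72 that overlapped the 3 WT KD values of 8.08, 18.5 and 11.5. With all libraries, 11 of 12 blood myeloid genes were lower in INDY KD (median -1.77, 6 with an unadjusted p under 0.05), and 12 of 12 choroid plexus genes (1.05) and 18 of 20 liver genes (1.46) were higher, with 0 called in each list. WT KD 7 and WT KD 12 held the high blood myeloid levels, and the part of these lists was not tested.

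Whether the CSB genotype difference depended on the INDY genotype was tested in the same way. The difference was above 0 in all 10 genes, with a median of 0.24, and 0 were called, where 0% of all genes were and 3.1% had an unadjusted p under 0.05. The largest were Clec7a at 0.63 (95% interval -0.09 to 1.36, limma adjusted p = 1) and Cst7 at 0.61 (-0.26 to 1.47). Without the library labelled WT KD 25 they were 0.46 and 0.35, and Spp1 and Cd9 were then below 0. In the same test 16 of 16 forebrain genes were above 0 (median 0.60), while 19 of 20 liver genes (-1.99), 15 of 15 cerebellar neuron genes (-0.35) and 12 of 12 astrocyte genes (-0.21) were below 0, with 0 called in each list. This test shares libraries with those above, and the intervals of Itgax (-0.39 to 1.21) and Gpnmb (-0.50 to 1.00) allow a difference of 1 log2 unit in the upward direction.

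**Figure D5:**
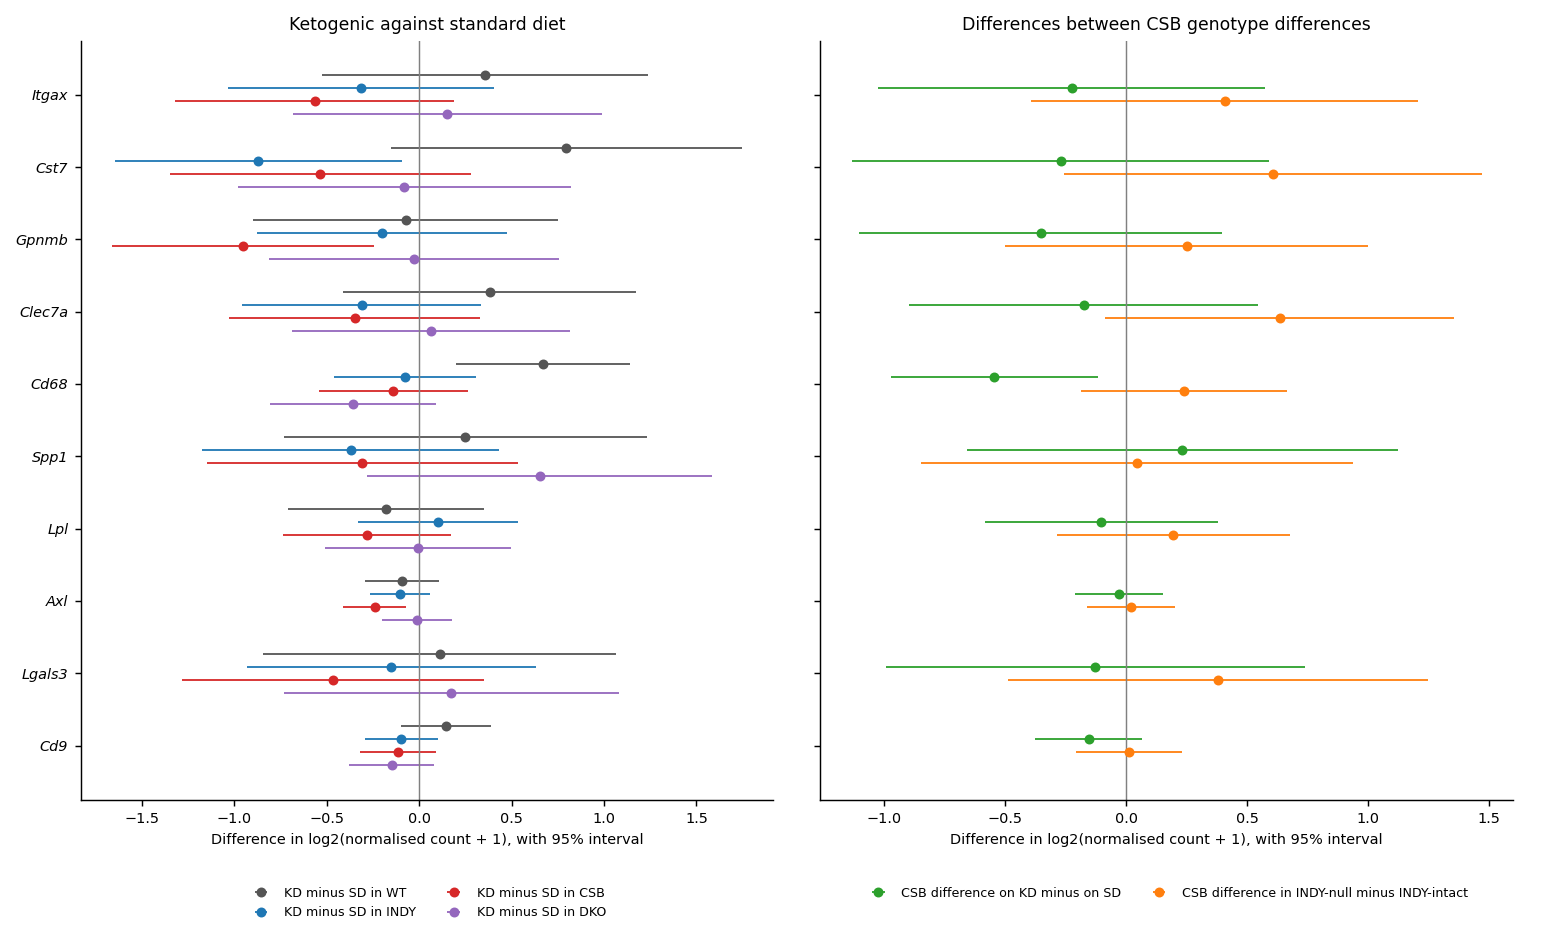
Left, difference in log2(normalised count + 1) between KD and SD (horizontal axis) for each gene (vertical axis) in WT, INDY, CSB and DKO. Right, how the CSB genotype difference changed with diet (green) and with the INDY genotype (orange). Points are fitted differences and bars 95% intervals. On the left the intervals of Cd68 in WT, Cst7 in INDY and Gpnmb and Axl in CSB exclude 0, and on the right that of Cd68 with diet. None of the 10 genes was called in any of these comparisons.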

How the data were processed

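Total RNA was isolated by a trizol and chloroform method, and libraries without ribosomal RNA were read on a DNBseq platform, per the labels. The authors deposited 1 table, whose signal is an estimated read count normalised before deposit; the submitters' processing notes name Salmon, Bowtie2, DESeq2 and the build mm9 without versions or roles. Between 12.8% and 66.0% of low values lay within 0.02 of whole reads, so raw counts could not be recovered, depth is unknown, and no counting interval is given.

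Gene IDs were matched to symbols through GENCODE M21 on GRCm38 (54097 of 54331 without the ID version), a build other than mm9. Promoters came from RefSeq on GRCm38.p6. Genes at 10 or more in at least 4 of 40 libraries were fitted as log2(value + 1), with a pseudocount of 1, with limma 3.58.1 in R 4.3.3 (empirical Bayes with trend, robust), with 8 group means and no covariate. P-values are two-sided and Benjamini-Hochberg adjusted over 21367 genes. A fold or difference on this scale understates the change of low genes. The fit was tested on simulated data. Figures used matplotlib 3.10.9.

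The 10 genes and all lists were chosen with earlier results of these data known. All 10 were named; from the list of the same state the 6 called genes with the smallest p and Trem2, Tyrobp and Apoe; from the homeostatic list P2ry12, Tmem119, Cx3cr1 and Csf1r; and the 8 genes of most similar pattern. Gm6768, Ncoa4 and single markers were named after their values were seen. A result for 1 gene of the homeostatic list is not reported here. Alternatives were pseudocounts 0.5 and 5, no filter, other scalings, plain empirical Bayes, fits of the groups compared, forebrain or liver covariates, and leaving out each library or, chosen after seeing the data, all libraries of high forebrain or liver level.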

Additional observations from a re-analysis of the deposited data

Results flagged for a closer look

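Dixon's ratio was computed for 80 sets of values (10 genes in 8 groups), to find a library far from the rest of its group, and 6 sets held one, where chance gives about 1 in 20. CSB KD 13 was high in Cd68, at a normalised count of 317.9 with the next library at 189.9, and in Lgals3, at 159 with the next at 83.4. CSB SD 30 was low in Spp1, at 1269.5 with the next at 2492, and in Cd9, at 751 with the next at 1036. Spp1 was also low in WT SD 41, at 779 with the next at 2061, and in DKO SD 1, at 480.5 with the next at 2242. Of the 6, 3 were values of Spp1. DKO SD 1 was also the library with the highest forebrain level, and its part in the Spp1 value was not tested. The library labelled WT KD 25 was not among these.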

How the results depend on the processing

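Counts of called genes among the 10 were refitted in 812 combinations of comparison and setting, and 797 stayed within 1.5 times of the reported count; in the 11 comparisons of diet and INDY the count was 0 in every setting. CSB against WT on SD gave 5 calls, 3 with the liver covariate, 0 without the libraries of high liver level (which keep 1 CSB SD library, assumed to vary like the other groups, with the 5 genes still at 1.72 to 2.33) and 3 to 6 leaving out single libraries, with 3 without WT SD 39. CSB against WT on KD gave 0 to 1 leaving out single libraries, 1 without the library labelled WT KD 25. DKO against INDY on SD gave 4 calls, and 1 to 5 leaving out single libraries. It gave 1 without INDY SD 32, DKO SD 34, DKO SD 35 or DKO SD 36. It gave 2 without the libraries of high forebrain level (Itgax, Cst7, Gpnmb, Clec7a and Cd68 at 1.42 to 2.53). It gave 0 without those of high liver level (1.12 to 2.06), with DKO SD 1 and DKO SD 35 left against INDY SD 9 and INDY SD 33. On KD it gave 5, 0 in a fit of only the groups compared, 0 without those of high liver level and 3 to 6 leaving out single libraries, with 3 without DKO KD 24. The average gave 8, 4 without those of high liver level and 7 to 8 leaving out single libraries. Over all genes the average gave 170 calls, and 120 to 1378 leaving out single libraries. The cause was not tested.

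The called differences of the average kept their direction in all 50 settings, from 1.97 to 2.41 for Itgax, 1.87 to 2.40 for Cst7 and 1.06 to 1.31 for Cd68. The genes were chosen with this difference known in these same libraries, so the kept direction supports nothing further. Axl lost its call without WT SD 39, WT KD 28 or DKO SD 36 (limma adjusted p = 0.0513, 0.0504 and 0.0508). Rescaling by the median ratio used factors of 1.002 to 1.005. The small diet differences averaged over genotypes, none of them called, changed sign in some settings. Leaving out single libraries, Cd68 ranged from -0.0389 to 0.0596, Spp1 from -0.0932 to 0.1168, Clec7a from -0.1427 to 0.0398 and Lgals3 from -0.1903 to 0.0616. Without the libraries of high forebrain level, with WT KD 28 the only WT KD library left, Cd68 was -0.0817, Spp1 -0.0654 and Lpl 0.0934. Without those of high liver level Cd68 was -0.0843 and Itgax 0.1058. No paired analysis was possible because the library numbers of the labels are not shared between groups.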
